A study of Mus musculus with 2 samples.

Results

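The genes described here build and run the cilium: the intraflagellar transport (IFT) particles and their motors, the BBSome, the dynein arms and their assembly factors, the radial spokes, the tektins and a pair of polycystins. Members were chosen by mouse gene symbol alone (Ift, Bbs, Dnah, Dnai or Dnaic, Dnaaf, Dynlrb, Dync2, Kif3, Kif17, Tekt and Rsph genes, with *Pkd2* and *Pkd1l1*), not by any measured value. Among RefSeq genes 67 matched, of which 59 had a probe named on the arrays, out of 20281 named genes with a probe. The arrays held no probe named by its accession for *Dnah3*, *Dnah7a*, *Dnah7b*, *Dnah7c*, *Dnah12*, *Dnah14*, *Pkd1l1* and *Tekt5*, which were therefore not analysed here.

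The study examined *Dullard* (*Ctdnep1*), which encodes a nuclear envelope phosphatase, in the gastrulating mouse embryo. Whole C57BL/6 embryos were collected at E7.5, and RNA of 1 *Dullard*-heterozygous (*Dullard*+/-) embryo and 1 *Dullard*-homozygous (*Dullard*-/-) embryo was hybridised to 1 array each. The heterozygous embryo, which carries 1 altered allele, was the reference, and no wild-type embryo was analysed here. The study made a whole-gene deletion and a LacZ replacement of the first exons, and the sources used here do not say which allele the homozygous embryo carried. With 1 embryo per genotype no test was possible, so differences between the genotypes, between these 2 embryos and between these 2 hybridisations cannot be told apart. Errors below, in log2 units, are SDs estimated from probes spotted several times at a like signal. For a gene with several probes used, this SD is divided by the square root of their number. The errors cover spot-to-spot noise within an array, not the spread between embryos or the disagreement between probes of a gene.

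Signals are the scanner's background-subtracted intensities. The 75th percentile over spots was 286 on the heterozygous array and 264 on the homozygous array, and each log2 fold change is *Dullard*-/- over *Dullard*+/- after dividing by it. Spots well above background made up 72.6% of the heterozygous and 68.1% of the homozygous array. *Ctdnep1*, the targeted gene, read 672 in the heterozygote against 144 in the homozygote, with a log2 fold change of -2.11 ± 0.06. Whether its probe lies inside the deleted region was not determined.

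A cilium grows as a microtubule axoneme from a basal body. IFT-B trains carry cargo to the tip behind kinesin-2, IFT-A trains return behind cytoplasmic dynein 2, and the BBSome moves membrane proteins along the same trains. Motile cilia add outer and inner dynein arms, which drive bending, and radial spokes, which regulate it. Cytoplasmic assembly factors fold the arms before they are carried in. In the mouse embryo the pit cells of the node carry motile cilia whose rotation drives leftward flow, and the transport genes serve the immotile primary cilia of other cells too.

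Of the 59 members with a probe, 51 gave signals well above background on both arrays, which is 86.4%, against 72.8% of all named genes. The IFT subunits and motors were measured almost completely, 21 of 22 (95.5%), whereas only 6 of the 11 motile dynein arm genes were (54.5%). *Dnah9* (1.26 in *Dullard*+/- and 1.92 in *Dullard*-/-), *Dnaic2* (1.5 and 1.83) and *Dnah2* (1.91 and 5.37), all arm subunits, and *Tekt3* (1.37 and 1.64) were not well above background on either array. In a whole embryo, fewer cells of a type and less RNA per cell cannot be told apart, and this holds for every value below.

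A further 4 members were well above background in the heterozygote alone, and none in the homozygote alone. *Dnaaf6*, an arm assembly factor, gave 11.2 in *Dullard*+/- and 4.04 in *Dullard*-/-, at least 1.43-fold lower. *Dnah6*, an inner arm heavy chain, gave 9.58 and 6.26 (at least 1.22-fold lower), and *Ift81*, which binds tubulin cargo with *Ift74*, gave 9.28 and 7.39 (at least 1.16-fold lower). For *Dnah10*, another inner arm heavy chain, 1 of 3 probes was well above background in *Dullard*+/-, with 8.64 and 5.9 (at least 1.1-fold lower). Each bound sets the *Dullard*+/- signal, after scaling, against the higher of 2 values in *Dullard*-/-, namely the probe's own signal (as for *Ift81*) and 7.27, the dimmest signal that still stood well above background. Over all named genes 4.45% stood well above background for the heterozygote alone and 0.749% for the homozygote alone, so a lean to the heterozygous array was general. These 4 genes sit near the limit of detection in both embryos.

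**Figure D1:**
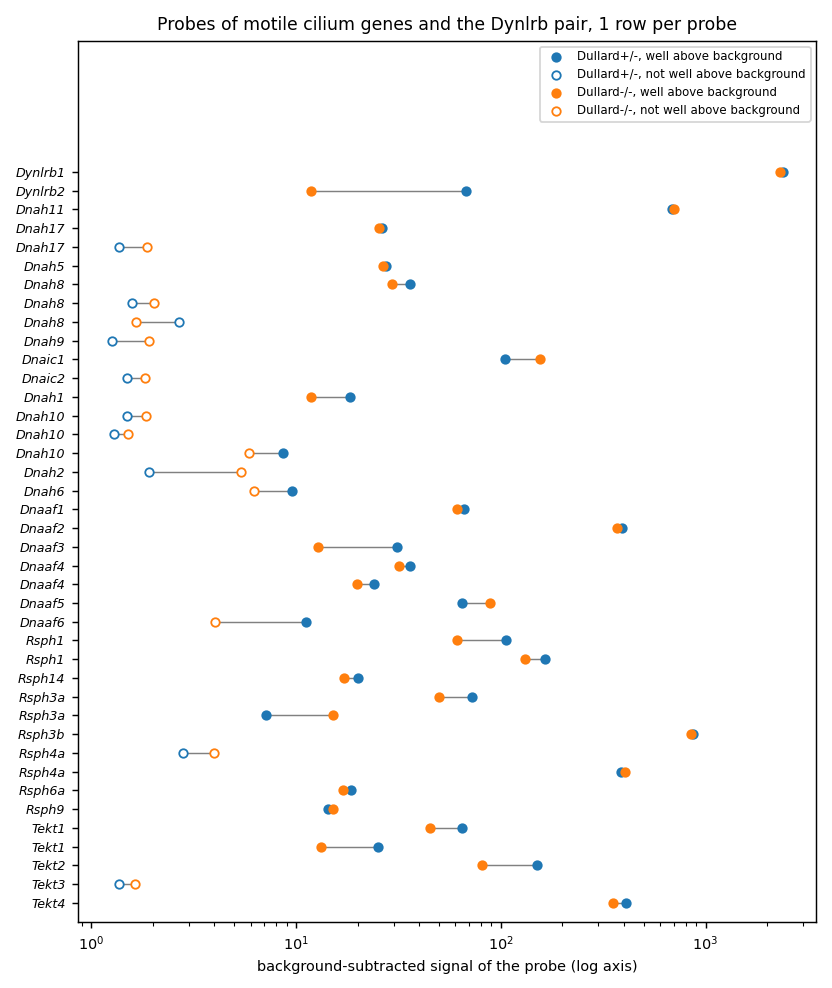
Background-subtracted signal (log axis) of each probe of the motile cilium genes and of *Dynlrb1* and *Dynlrb2* in the heterozygote (blue) and the *Dullard*-/- embryo (orange), with open circles where the probe was not well above background. *Dynlrb2* spans the widest gap among the filled pairs, from 67.3 to 11.8, while *Dynlrb1*, *Dnah11* and *Rsph3b* nearly coincide.

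Most members differed little between the embryos. The 51 measured on both arrays split into 27 above and 24 below 0, with a median log2 fold change of 0.02, beside 0.01 over all 14770 genes measured. Left unscaled, these medians were -0.09 and -0.10, so the side of 0 on which a small value falls depends on the scaling. No member was higher in the homozygote by 2-fold or more (0.894% of all genes were), while 2 were lower by that much (0.765% of all genes), namely *Dynlrb2* and *Dnaaf3*. At 1.5-fold, 2 members were higher, *Dnaic1* and *Bbs9* (3.92% of all genes), and 5 were lower, *Dynlrb2*, *Dnaaf3*, *Tekt2*, *Ift140* and *Tekt1* (3.37% of all genes). Dim probes scatter more. When all genes were split by mean signal into 4 classes of like size, the dimmest class held 17 members, and 2.19% of its genes were lower by at least 2-fold, 2.3% higher by as much and 9.29% lower by at least 1.5-fold. With normexp background correction, which adds an offset of 50 to every signal and so narrows dim differences, the 1.5-fold members read 0.45 for *Dnaic1*, 0.60 for *Bbs9*, -0.50 for *Tekt2*, -0.42 for *Ift140* and -0.14 for *Tekt1*. In either direction, 1.66% of all genes passed 2-fold and 7.29% passed 1.5-fold.

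**Figure D2:**
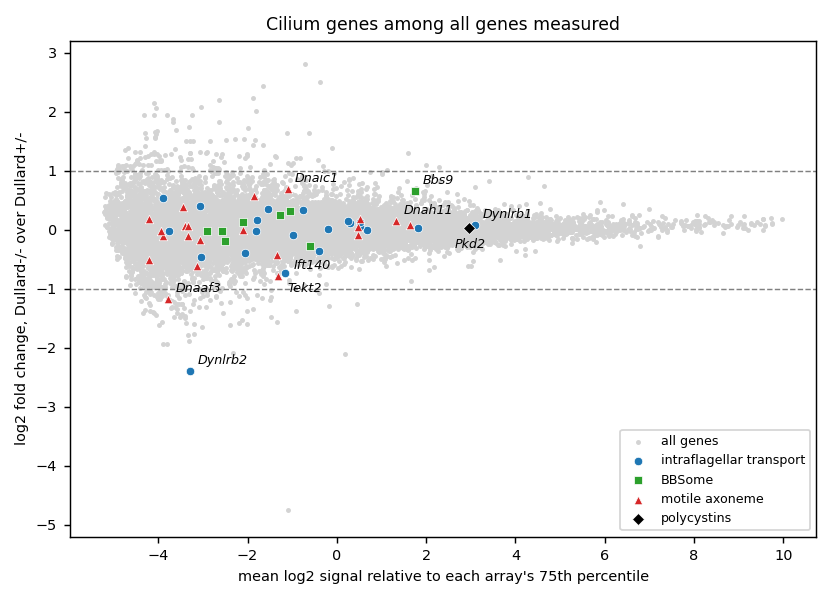
Log2 fold change, *Dullard*-/- over *Dullard*+/-, against mean log2 signal relative to each array's 75th percentile, for 14770 genes (grey) and the 51 members (coloured by group), with 2-fold changes as dashed lines. *Dynlrb2*, at -2.40, lies at the lower edge of the cloud, *Dnaaf3* lies just past 2-fold, and the other members lie within the dashed lines.

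The widest difference was in *Dynlrb2*, a roadblock-type light chain shared by the cytoplasmic dyneins and grouped here with the IFT motors. Its single probe gave 67.3 in the heterozygote and 11.8 in the homozygote, both well above background. The log2 fold change was -2.40 ± 0.20, or 5.28-fold lower, which ranked 2 from the lowest of 14770 genes. By its mean over both embryos it lies in the dimmest signal class, as does *Dnaaf3*. Its paralog *Dynlrb1*, which serves the same dyneins in most cells, gave 2384 and 2319, a log2 fold change of 0.07 ± 0.05. The paralogs thus did not move together. Under 8 of the 9 other ways of processing the values *Dynlrb2* stayed between -2.51 and -2.34. With normexp it was -0.63, still lower but within 2-fold.

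The promoters of the pair are shown because RFX transcription factors, regulators of ciliary genes, bind a sequence called the X-box, and the paralogs differ in it. Each line gives the 250 bases before the annotated start site in RefSeq (GRCm38.p6), 5′ to 3′ along the gene, at chr8:116504765-116505014 (plus strand) for *Dynlrb2* and chr2:155236283-155236532 (plus strand) for *Dynlrb1*. Capitals mark the short X-box motif GTTGCC or its reverse complement GGCAAC.
Dynlrb2: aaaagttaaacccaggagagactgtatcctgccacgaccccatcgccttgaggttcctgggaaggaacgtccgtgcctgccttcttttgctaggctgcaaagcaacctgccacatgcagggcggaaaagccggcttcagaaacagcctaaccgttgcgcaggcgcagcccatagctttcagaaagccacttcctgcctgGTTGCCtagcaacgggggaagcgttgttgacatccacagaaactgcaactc
Dynlrb1: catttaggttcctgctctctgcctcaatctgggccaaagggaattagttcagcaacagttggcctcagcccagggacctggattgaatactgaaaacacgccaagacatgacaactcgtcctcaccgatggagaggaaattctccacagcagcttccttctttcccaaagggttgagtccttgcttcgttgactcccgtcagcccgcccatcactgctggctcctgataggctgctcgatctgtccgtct
The *Dynlrb2* promoter held the motif once, at positions -51 to -46 from the start site, and neither of the 2 *Dynlrb1* windows in the table held it. The windows searched run from 250 bases before to 50 bases after the start site, and 12.5% of all such windows held the motif, so a match describes these letters and is no sign that a factor binds.

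Among the other motors, cytoplasmic dynein 2 moved both ways by less than 1.5-fold. *Dync2h1*, its heavy chain, gave 150 in *Dullard*+/- and 174 in *Dullard*-/- (log2 fold change 0.33 ± 0.08). *Dync2li1*, its light intermediate chain, gave 40.5 and 27.3 (-0.46 ± 0.18). The kinesin-2 genes stayed near 0, with log2 fold changes of 0.16 for *Kif3c*, 0.12 for *Kif17*, -0.03 for *Kif3a* and -0.03 for *Kif3b*. Another *Kif17* probe, well above background in *Dullard*+/- alone and not used, was at -0.25 (10.3 and 7.98). The 2 probes of *Kif3b* went opposite ways, 0.45 (14.6 and 18.4) and -0.50 (31.3 and 20.5), and those of *Kif3a* did so within a narrow span, 0.09 (101 and 99.5) and -0.15 (67.5 and 56.3). The median of the 8 motor genes was 0.02.

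IFT-B subunits centred slightly above 0, with a median log2 fold change of 0.10 over 10 genes, 7 of them above 0, although the median was -0.02 without scaling. *Ift172*, a large peripheral subunit, read 16.1 in *Dullard*+/- and 21.5 in *Dullard*-/- (0.53 ± 0.24), *Ift46* read 0.40 ± 0.13 and *Ift52* 0.34 ± 0.09. The *Ift46* value averages a dim probe at 0.62 (8.13 and 11.6) and a brighter one at 0.18 (107 and 112). With normexp *Ift46* read 0.17, *Ift172* 0.16 and *Ift52* 0.34. *Ift22* and *Ift27*, small GTPases of the complex, were at -0.40 ± 0.11 and -0.36 ± 0.07. *Ift20*, which also resides at the Golgi, gave 460 and 421, a log2 fold change of -0.01 ± 0.06, and *Ift88*, whose loss abolishes cilia, gave 393 and 399 (0.14 ± 0.06). No IFT-B gene reached 1.5-fold.

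Of the 3 IFT-A genes in the rule, *Ift140* stood apart. This core subunit of the retrograde complex gave 163 in *Dullard*+/- and 91.1 in *Dullard*-/-, a log2 fold change of -0.73 ± 0.09. *Ift43* gave 1004 and 947 (0.03 ± 0.05). *Ift122* averaged -0.10 ± 0.06 over 2 probes that disagreed in sign, -0.40 (224 and 157) and 0.20 (98.7 and 105). In the second signal class from the dimmest, where *Ift140* lies, 3.39% of genes were at least 1.5-fold lower.

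The BBSome genes and their chaperonins had a median of 0.06 over 8 genes. *Bbs9*, a scaffold subunit, was the one past 1.5-fold, with 773 in *Dullard*+/- and 1119 in *Dullard*-/- (0.65 ± 0.05). It lies in the brightest signal class, of which 0.704% were at least 1.5-fold higher. Its partner subunits in the rule ran from -0.28 ± 0.08 for *Bbs4* to 0.25 ± 0.06 for *Bbs5*. Of BBSome subunits outside the rule, *Ttc8* was at -0.02 ± 0.20 and *Bbip1* at 0.34 ± 0.25 (11.8 and 13.8). The chaperonin-like genes were at 0.31 ± 0.08 for *Bbs12* and -0.03 ± 0.12 for *Bbs10*. Probes of 1 gene differed in sign for *Bbs1* (-0.65, 46.4 and 27.4, and 0.25, 63.2 and 69.5), *Bbs7* (-0.09, 40.3 and 35.0, and 0.05, 57.8 and 55.5) and *Bbs10* (0.16, 40.9 and 42.2, and -0.22, 36.2 and 28.7).

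**Figure D3:**
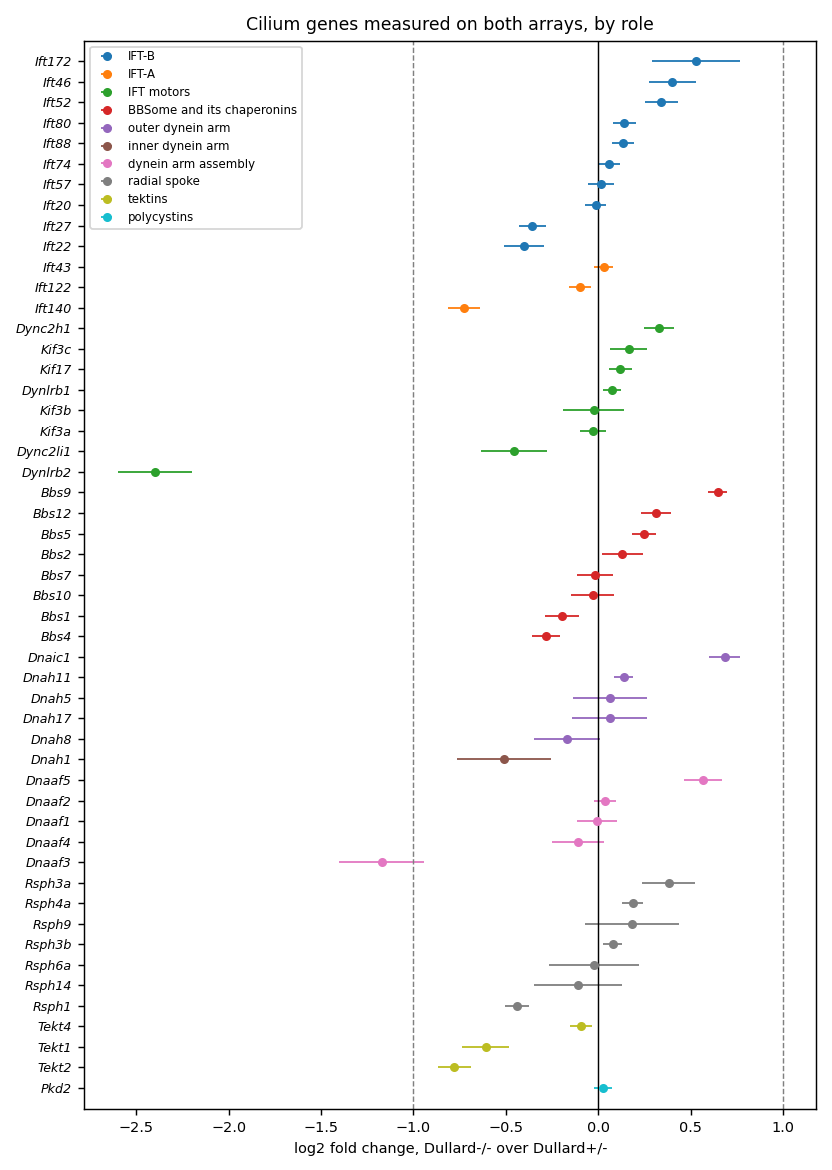
Log2 fold change, *Dullard*-/- over *Dullard*+/-, of the 51 members measured on both arrays, coloured by role, with bars of the error from replicate spots and dashed lines at 2-fold. Most lie near 0, with *Dynlrb2* at -2.40 and *Dnaaf3* at -1.17 past the lower line and no member past the upper one.

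The outer dynein arm genes that could be measured were near 0 or higher. *Dnah11*, the heavy chain needed for node cilia to beat, gave 686 in *Dullard*+/- and 698 in *Dullard*-/- (0.14 ± 0.05). *Dnah5*, its partner heavy chain, gave 27.5 and 26.6 (0.06 ± 0.20). *Dnaic1*, an intermediate chain, gave 105 and 156, a log2 fold change of 0.68 ± 0.08 and the highest of any member. In its signal class, the second from the dimmest, 4.79% of genes were at least 1.5-fold higher. *Dnah17* was at 0.06 ± 0.20 (26.4 and 25.4) and *Dnah8* at -0.17 ± 0.18 (36.0 and 29.6), each from 1 probe, with their remaining probes not well above background. Of the inner arm genes in the rule only *Dnah1* was measured on both arrays, with 18.3 and 11.9 (-0.51 ± 0.25). Outside the rule, the inner arm gene *Dnali1* gave 18.9 and 22.7 (0.37 ± 0.23).

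Set side by side, the motile dynein arms had a median log2 fold change of 0.06 over 6 genes and IFT a median of 0.03 over 21, a difference of 0.03 on the log2 scale. Without *Dynlrb2* the IFT median was 0.04. With the assembly factors, spokes and tektins added, 21 motile axoneme genes had a median of -0.01 and lay 0.04 below IFT on the log2 scale. For scale, the pooled SD between probes of 1 gene over the whole array was 0.29. The groups lay much further apart in how many of their genes could be measured at all, as given above. That also depends on the probe. In *Dullard*+/- the probes of *Dnah8* gave 36.0, 1.58 and 2.7, and *Dnah9*, *Dnaic2*, *Dnah2* and *Dnah6* had a single probe each. Whether the gap lies in expression or in the probes was not tested.

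Assembly factors did not move as 1 group. *Dnaaf3*, which acts in arm preassembly, gave 31.3 in *Dullard*+/- and 12.8 in *Dullard*-/-, a log2 fold change of -1.17 ± 0.23 or 2.25-fold lower, and with normexp background correction -0.22. *Dnaaf5* went the other way, from 65.0 to 89.0 (0.57 ± 0.10). *Dnaaf1* (-0.01 ± 0.11), *Dnaaf2* (0.04 ± 0.06, 391 and 371) and *Dnaaf4* (-0.11 ± 0.14) differed by no more than their error. Their median was -0.01 over 5 genes.

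The 3 tektins measured on both arrays, filament proteins of the doublet microtubules, were below 0, as were 48.0% of all genes. *Tekt3*, not well above background, and *Tekt5*, without a probe, are not among them. The median of the list was below 0 under every alternative tried, from -0.72 unscaled to -0.14 with normexp. *Tekt2* gave 150 in *Dullard*+/- and 80.9 in *Dullard*-/- (-0.78 ± 0.09). *Tekt1* gave 44.8 and 29.2 averaged over 2 probes (-0.61 ± 0.13), with -0.40 (64.6 and 45.2) and -0.82 (25.1 and 13.2) for the single probes. *Tekt4* gave 409 and 355 (-0.09 ± 0.06). *Tekt1* and *Tekt2* were thus lower in every probe measured, and the median with *Tekt4* was -0.61. In the signal class of *Tekt2* 3.39% of genes were at least 1.5-fold lower, and in that of *Tekt1* 9.29%.

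Radial spoke genes had a median of 0.08 over 7 genes. *Rsph1*, a spoke head protein, was the lowest at -0.44 ± 0.06, with both probes below 0 (-0.67, 106 and 61.3, and -0.20, 164 and 132). *Rsph4a*, another head protein, was at 0.19 ± 0.06, with its other probe not well above background (2.8 and 3.98). *Rsph3b*, a stalk protein, gave 866 and 845 (0.08 ± 0.05), and *Rsph9*, a head protein, 14.4 and 15.1 (0.18 ± 0.25). *Rsph3a* averaged 0.38 ± 0.14, but its probes opposed each other, -0.43 (72.7 and 49.9) and 1.19 (7.15 and 15.1), so no direction can be given. *Pkd2*, the cation channel of cilia that sense flow at the node, gave 2219 and 2086 (0.02 ± 0.05).

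The X-box motif was searched in the same windows, which include the 50 bases after the start site, for all members. Of the 52 members with a window, 23 genes held GTTGCC or GGCAAC (44.2%), against 14.1% of the 27025 genes in the table. By group the share was 55.6% of 18 IFT genes, 37.5% of 8 BBSome genes and 40% of 25 motile axoneme genes. A fuller X-box, GTTNCC followed after 0 to 3 bases by GGNAAC, occurred in 3 members, *Bbs7*, *Dnaaf6* and *Ift57*, and in 0.936% of all genes. Its matches can contain the short motif. This definition is strict. In *Dynlrb2* the short motif is soon followed by agcaac, which differs from GGNAAC in its first letter and was not counted. The forkhead motif GTAAACA, of the kind bound by FOXJ1, occurred in 2 members, against 4.05% of all genes.

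The promoters below show a fuller X-box in 3 genes of different behaviour, *Dnaaf6* (well above background in *Dullard*+/- alone), *Ift57* (0.01 ± 0.07) and *Bbs7* (-0.02 ± 0.10), beside *Tekt2* with 2 short motifs and *Dnaaf3* with none. Each is the 250 bases before the start site (GRCm38.p6), at chr1:31222589-31222838 (plus strand) for *Dnaaf6*, chr16:49699044-49699293 (plus) for *Ift57*, chr3:36613390-36613639 (minus) for *Bbs7*, chr4:126325647-126325896 (minus) for *Tekt2* and chr7:4532466-4532715 (minus) for *Dnaaf3*. Capitals mark the motifs.
Dnaaf6: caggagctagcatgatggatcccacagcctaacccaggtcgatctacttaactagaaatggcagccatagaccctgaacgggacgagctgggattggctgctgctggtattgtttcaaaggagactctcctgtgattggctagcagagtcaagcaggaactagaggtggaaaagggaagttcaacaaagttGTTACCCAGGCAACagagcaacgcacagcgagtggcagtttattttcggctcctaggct
Ift57: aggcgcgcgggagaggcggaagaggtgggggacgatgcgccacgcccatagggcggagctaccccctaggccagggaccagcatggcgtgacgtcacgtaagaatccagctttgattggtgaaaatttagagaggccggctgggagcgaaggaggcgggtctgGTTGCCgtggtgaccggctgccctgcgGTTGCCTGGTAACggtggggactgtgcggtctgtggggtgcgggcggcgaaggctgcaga
Bbs7: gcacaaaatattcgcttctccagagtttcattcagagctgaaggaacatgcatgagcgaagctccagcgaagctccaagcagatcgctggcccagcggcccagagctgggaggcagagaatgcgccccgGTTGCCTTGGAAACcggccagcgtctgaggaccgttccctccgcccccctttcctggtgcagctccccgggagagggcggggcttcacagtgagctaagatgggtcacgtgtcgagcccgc
Tekt2: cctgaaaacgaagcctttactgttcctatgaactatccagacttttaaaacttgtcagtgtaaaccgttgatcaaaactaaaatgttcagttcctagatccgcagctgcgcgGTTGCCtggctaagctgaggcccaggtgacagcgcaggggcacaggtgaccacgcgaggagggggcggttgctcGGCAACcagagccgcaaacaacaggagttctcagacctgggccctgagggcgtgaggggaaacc
Dnaaf3: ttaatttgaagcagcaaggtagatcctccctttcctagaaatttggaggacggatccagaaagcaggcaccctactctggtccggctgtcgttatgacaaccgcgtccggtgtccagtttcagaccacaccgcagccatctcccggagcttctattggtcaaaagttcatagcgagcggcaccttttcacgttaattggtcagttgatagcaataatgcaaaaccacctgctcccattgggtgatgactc
The 2 lowest members differ in this respect, since *Dynlrb2* has the short motif and *Dnaaf3* has none in its window. Any link between the motif and the signal was not tested.

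**Figure D4:**
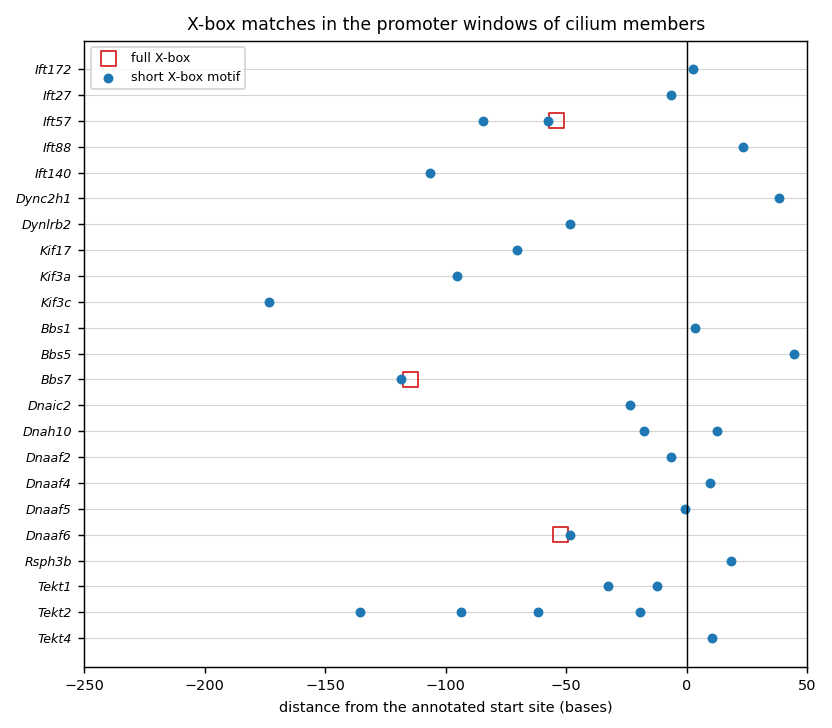
Distance in bases from the annotated start site (0) of each X-box match in the RefSeq promoter windows of members, with blue points for the short motif and red squares for the fuller X-box. Of 29 short matches 25 begin no more than 100 bases before the start site, and *Tekt2* shows 4 points because its 2 sites are counted from 2 start sites.

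Cilium genes outside the rule were read from the same arrays. Of 19 IFT and BBSome subunits with other symbols none was past 2-fold (median 0.07), and of 19 transition zone genes, which gate the ciliary base, none was either (median 0.10). Of the motile axoneme genes with other symbols 6 were above and 18 below 0 (median -0.09), against 52.0% above and 48.0% below over all genes. In that list *Stk36*, needed for the central pair, read 61.8 and 29.2 (-1.15 ± 0.13), and *Enkur*, a microtubule inner protein, read 21.7 and 9.89 (-1.02 ± 0.25). Both lie in the dimmest signal class, and with normexp they read -0.32 and -0.05. *Stk36* was also within 2-fold with its brightest probe (-0.86), and *Enkur* after quantile (-0.93), loess (-0.92) and median (-0.98) scaling. Among the 36 genes of this list with a probe, 6 more were well above background in *Dullard*+/- alone and none in *Dullard*-/- alone. Over all named genes the shares were 4.45% and 0.749%. The bounds of these 6 genes were small, from at least 1.02-fold to at least 1.34-fold lower.

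Of 9 ciliary transcription factors measured on both arrays, 2 were above and 7 below 0, with a median of -0.08. Over all genes 52% were above and 48% below 0. The 2 above were *Rfx3* and *Mcidas*, whose probe read 117217 and 111456 (0.04 ± 0.04). Whether so bright a probe reports *Mcidas* RNA was not tested. Of the 13 factors with a probe, 3 more were well above background in *Dullard*+/- alone, as were 4.45% of all named genes. *Foxj1*, the master regulator of motile cilia, gave 250 in *Dullard*+/- and 231 in *Dullard*-/-, a log2 fold change of 0.00 ± 0.07 after scaling. *Rfx3*, needed for node cilia growth, was at 0.06 ± 0.05. *Rfx2* was well above background in *Dullard*+/- alone with 7.68 and 5.14, and no bound could be set. *Noto*, a node factor upstream of *Foxj1*, gave 18.6 and 8.17, at least 2.1-fold lower. *Ccno*, which promotes centriole amplification in multiciliated cells, read 59.5 and 22 (-1.32 ± 0.17), and *Rfx7* read 23.3 and 10.5 (-1.05 ± 0.18). These 2 were past 2-fold, as were 0.765% of all genes and 2.19% of the dimmest signal class, where both lie. With normexp *Ccno* read -0.36 and *Rfx7* -0.13, and *Rfx7* was also within 2-fold after quantile (-0.96) and loess (-0.95) normalization and with the brightest probe (-0.99).

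The 21 centriole and ciliogenesis genes had a median of 0.05, with *Fbf1*, a transition fibre protein, past 2-fold at -1.41 ± 0.25 (27.3 and 9.47). It too lies in the dimmest class, of which 2.19% were lower by 2-fold or more, and it read -0.19 with normexp. None of 13 hedgehog pathway genes (3 above and 10 below 0, median -0.02) and none of 18 cytoplasmic dynein 1 and dynactin genes (median 0.01) was past 2-fold. Left-right genes, a list that shares *Dnah11*, *Pkd2*, *Foxj1* and *Rfx3* with those above, had 9 of 11 above 0 and a median of 0.14. Unscaled, that median was 0.02. Over all genes 52% were above and 48% below 0, to be set beside the hedgehog and left-right counts. In the left-right list *Nodal*, which is expressed around the node, gave 165 and 306, a log2 fold change of 0.999 ± 0.07 that fell just short of 2-fold.

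**Figure D5:**
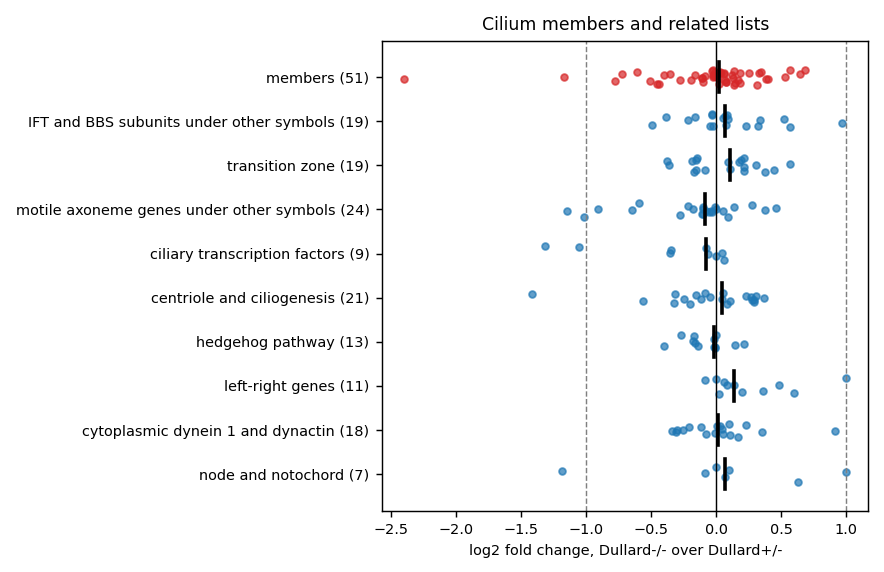
Log2 fold change, *Dullard*-/- over *Dullard*+/-, of each gene measured on both arrays in the members (red) and in related lists (blue), with the number of genes in brackets, black bars at the medians and dashed lines at 2-fold. Medians lie between -0.09 and 0.14, and single genes past the lower line occur in the members, the motile axoneme, transcription factor, centriole and node lists.

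Markers of the embryo's tissues were read as a check of the label. All 7 epiblast, all 9 visceral endoderm and all 8 anterior visceral endoderm markers were measured on both arrays, with medians of 0.09, 0.00 and 0.76. The epiblast median is that of *Nanog*, whose probe read 152874 in *Dullard*+/- and 150048 in *Dullard*-/-. *Fgf5* (0.89), *Otx2* (0.82) and *Sox2* (0.44) lay above it, and the remaining epiblast markers between -0.06 and 0.09. Of 10 extraembryonic ectoderm and trophoblast markers with a probe 9 were measured (median 0.01), from -0.74 for *Ascl2* to 1.07 for *Prl3d1*. Of 9 node and notochord markers 7 were measured (median 0.06), and their summed signal, in units of the 75th percentile, was 3.73 in *Dullard*+/- and 4.66 in *Dullard*-/-. They went different ways. *Foxa2* was at 0.63 ± 0.06 (334 and 478) and *Nodal* at 0.999 ± 0.07 (165 and 306), and the higher sum comes from these genes. *Nog* was at 0.10 ± 0.18, *Chrd* at 0.06 ± 0.10, *Foxj1* at 0.00 ± 0.07, *Dand5* at -0.09 ± 0.14 and *T* at -1.19 ± 0.09 (152 and 61.8). *Noto* was well above background in *Dullard*+/- alone, and *Shh* was not well above background in either embryo (2.83 and 1.78). Blood markers, from cells without motile cilia, were lower in all 4 genes measured (median -1.12), with a summed signal of 2.82 in *Dullard*+/- and 1.22 in *Dullard*-/-. Of 12 decidua and uterus markers 7 were measured (median 0.09), from -0.55 for *Pgr* to 0.72 for *Igfbp1*. *Hoxa11* (5.96 and 20.9) and *Muc1* (7.7 and 12.4) were well above background in *Dullard*-/- alone, as were 0.749% of all named genes. Whether the samples differ in maternal tissue was not tested. The part of any of these cell populations in the lower *Dynlrb2*, *Dnaaf3* and *Tekt2* signals was not tested either.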

How the data were processed

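RNA of 1 *Dullard*+/- and 1 *Dullard*-/- embryo was hybridised to 1-colour Agilent whole-genome arrays on the same slide, in the same scan. Labels and methods differ on amplification, the labels giving 0.1 µg of RNA as input. The authors deposited scanner intensity values from Agilent Feature Extraction 10.10, with the background subtracted, and also processed intensities that equal them times a constant per array (4.91 and 5.20).

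From the deposited intensities, log2 values were taken after dividing by each array's 75th percentile over 43020 non-control spots. The 206 spots with an outlier mark were dropped, and none was saturated. Probes were named through their RefSeq accession (30235 spots). A gene is the mean log2 fold change over those probes that stood well above background in both embryos, and its signal the mean over those probes. Errors come from the 40 of 281 replicated probes nearest in signal. Medians and counts past 2-fold are descriptions, set beside all genes. Full values are given for members past 1.5-fold, members measured on 1 array, those with opposed probes and the brightest and dimmest of each role. Of other lists, genes past 2-fold and *Foxj1*, *Rfx2*, *Rfx3* and *Noto* are named, and further genes named were chosen after their values were seen. Members and lists were chosen with earlier results of these data known.

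The alternatives were quantile, loess (span 0.3), median and no scaling, all probes however dim, the brightest probe of a gene, a mean of linear folds, normexp (offset 50, on median signals), the processed table and a 1.5-fold limit. Scripts ran in Python 3.11.15 (numpy 2.4.6, pandas 2.3.3, statsmodels 0.14.6) and R 4.3.3 (limma 3.58.1), and were tested on simulated data. Arrays have no read depth, and 1 array per genotype limits the precision.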

Additional observations from a re-analysis of the deposited data

How the results depend on the processing

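No member was at least 2-fold higher, except 1 (*Dnah2*) without a filter on dim probes, and 2 at the 1.5-fold limit. The count at least 2-fold lower, 2 as reported, was 0 with normexp and 5 at 1.5-fold. The median of all members (0.02) was 0.0619 when scaled to the median, -0.0891 unscaled, 0.0548 with the brightest probe and -0.0063 in the processed table. The IFT median (0.03) was 0.0674, -0.0837, 0.0566 and -0.0008 under the same settings, -0.0005 without a dim filter and 0.0508 as a mean of linear folds. The dynein arm median (0.06) was -0.0509 unscaled, and the arms minus IFT (0.03) was 0.138 without a dim filter. The cause was not tested. Leaving the arrays unscaled moved the median of all genes from 0.01 to -0.10, so signs of medians near 0 depend on the scaling. Of all genes, 132 were past 2-fold upward and 113 downward (53.9% higher), against 90 and 165 (35.3%) unscaled, 484 and 778 (38.4%) without a dim filter and 10 and 5 (66.7%) with normexp. Of other values, 170 moved and 604 did not move by more than their error. No paired analysis was possible because each genotype had 1 embryo. Signals near 7.27, the lowest well above background in *Dullard*-/-, limit what can be said of the dim dynein arm genes.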
